A study of Mus musculus with 19 samples.

Results

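Orphan and adhesion G protein-coupled receptors were followed in mouse brain cells after bone marrow transplantation, through the genes Gpr34, Gpr84, Gpr65, Gpr141, Gpr183, Gpr132, Adgrg1, Adgre1 and Adgre5. The 9 genes were chosen by name, with earlier results of these data known, and all 9 were found among the 13783 genes of the sorted-cell table. Of the same genes, 7 were among the 15634 genes of the hippocampus table, and Gpr132 and Gpr141 were not analysed there.

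All mice had received 1100 cGy of total-body irradiation in split doses and 5000000 T-cell-depleted (TCD) bone marrow cells. Mice of the graft-versus-host disease (GVHD) groups were given 500000 splenic T cells as well, and TCD mice were not, so the TCD groups are transplanted, irradiated controls without this disease. On day 70 brain cells were sorted into macrophages that derive from donor bone marrow in GVHD mice (GVHD donor, 6 libraries), microglia of the GVHD host (GVHD host, 4 libraries) and microglia of the TCD host (TCD host, 3 libraries). Whole hippocampus is represented by 3 GVHD libraries and 3 TCD libraries of day 80. No strain, age, sex or sort gate is used here, since the labels do not give them, and the number of animals behind a library is not stated. P-values therefore measure the spread between these samples, which may be technical. Donor and host cells differ in origin, in donor or host genotype and in exposure to irradiation, and these cannot be told apart from cell type. The title of TCD host library 1 says TCD but its description says Syn, which leaves its transplant group in doubt. No other TCD host library has the lower of the API numbers in the titles, API_183 against API_197.

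G protein-coupled receptors are membrane proteins that pass an outside signal to G proteins inside the cell. Several of the receptors here respond to lipids or to acid. Gpr34 is a receptor for lysophosphatidylserine and a mark of microglia. Gpr84 responds to medium-chain fatty acids and is induced in inflamed myeloid cells. Gpr183 follows gradients of oxysterols and guides immune cell movement. Gpr132 responds to lysolipids and oxidised fatty acids, and Gpr65 senses extracellular protons. Gpr141 has no agreed ligand. Adhesion receptors carry a long extracellular part that is cleaved from the membrane part. Among them Adgrg1 (GPR56) binds matrix proteins and transglutaminase and belongs to the signature of microglia that arise in the embryo, Adgre1 is the F4/80 antigen of mouse macrophages, and Adgre5 (CD97) binds Cd55 and is found on many leukocytes.

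Values are normalised counts as deposited, on a scale with library totals of 890565 to 1090631 in sorted cells and 982114 to 1078636 in hippocampus. The smallest steps of the values gave an estimated 7901573 to 35844037 reads per sorted library and 16673391 to 18546747 per hippocampus library. A count of 3 reads was worth 0.090 to 0.362 in sorted libraries. The labelled cell types were checked on defining markers. The 8 microglia markers, all present in the table, summed to 11716 to 17592 in GVHD donor libraries, 41256 to 49268 in GVHD host libraries and 46815 to 59583 in TCD host libraries. The 7 macrophage and monocyte markers summed to 12173 to 20653 in GVHD donor libraries, 524 to 1049 in GVHD host libraries and 331 to 906 in TCD host libraries. Microglia markers were thus lower but far from 0 in the donor cells. Neutrophil markers (6 genes) summed to 10.3 to 595 in GVHD donor libraries, 0.319 to 19.6 in GVHD host libraries and 1.69 to 107 in TCD host libraries, and the 5 dendritic cell markers summed to 21.8 to 183.2 in GVHD donor, 5.86 to 12.4 in GVHD host and 6.88 to 18.99 in TCD host libraries. The part of other cells in the results was not tested.

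Donor macrophages and host microglia differed in the levels of most of these receptors. Against GVHD host microglia, GVHD donor macrophages had higher Adgre1, Gpr65, Gpr132, Adgre5 and Gpr141 and lower Gpr34, Gpr84 and Adgrg1, by 1.29 to 5.37 in size on the log2(value + 1) scale. Gpr183 was at nearly the same level in all 3 sorted groups. In all, 8 of the 9 genes passed the test (adjusted p under 0.05, limma), 5 of them higher and 3 lower. Gpr141, among the 5, entered the test only through its donor libraries. The background is high: 38.6% of the 13086 tested genes passed in this comparison, 19.4% higher and 19.2% lower. The groups did not overlap for the same 8 genes, against 27.9% of all tested genes. Larger differences were rarer, with 16.3% of tested genes called and changed at least 2-fold, and the 8 genes were all among them. The fits allow for the API number, and GVHD donor libraries are shared between both comparisons with host cells.

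**Figure D1:**
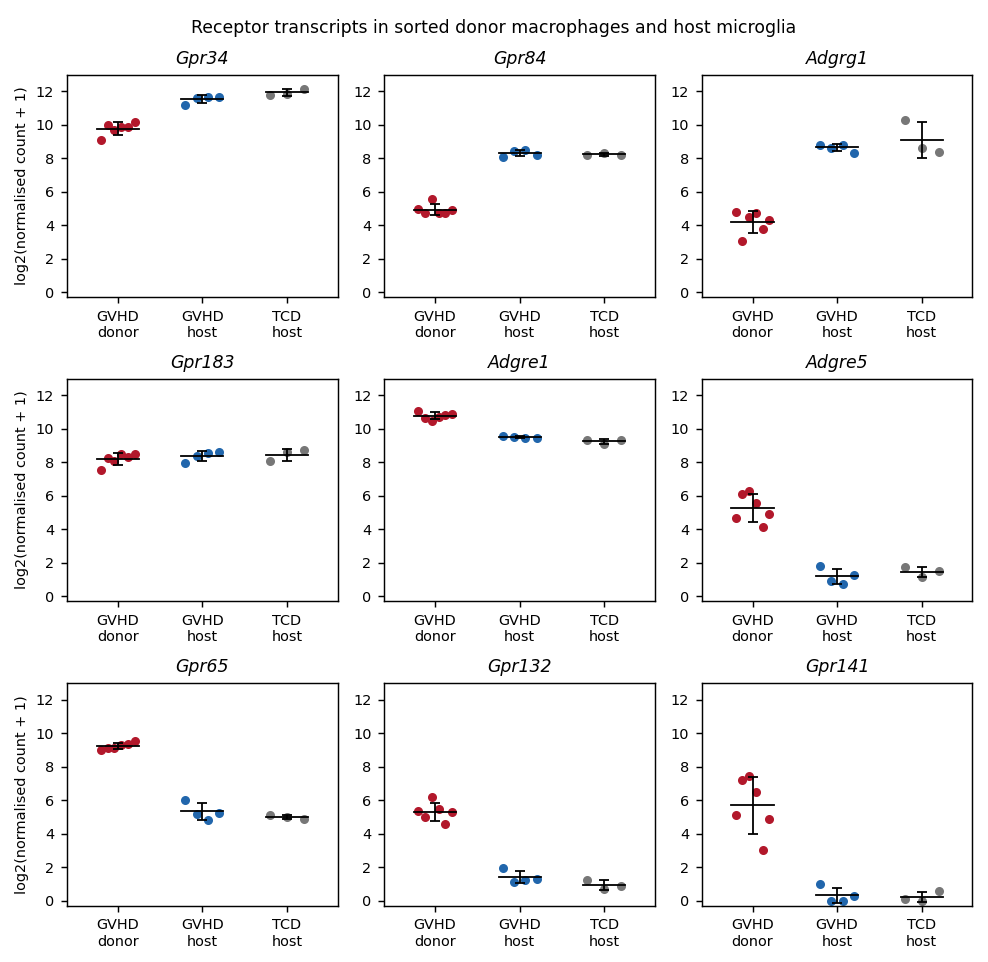
Normalised counts of the 9 receptor genes, as log2(value + 1) on the vertical axis, in GVHD donor macrophages (red, 6 libraries), GVHD host microglia (blue, 4) and TCD host microglia (grey, 3). Each point is a library, and bars give the mean and SD of the log2 values. Donor points lie below all host points for Gpr34, Gpr84 and Adgrg1, above them for Adgre1, Adgre5, Gpr65, Gpr132 and Gpr141, and among them for Gpr183.

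Per kilobase of exon, the order of the levels changed between the cell types. In GVHD donor macrophages the highest mean levels were those of Adgre1 (548 ± 79.5 normalised counts per kilobase, SD, n = 6), Gpr34 (429 ± 98.3) and Gpr65 (294 ± 40.6), and neighbours among these 3 overlapped between libraries. Gpr183 followed at 105 ± 23.1 and did not overlap with Gpr65 above or Gpr84 below. Gpr84, Gpr132, Gpr141 and Adgre5 lay at 11.7 to 17.6 with overlapping ranges. Adgrg1 was last, at 3.47 ± 1.40, and overlapped with Adgre5. In GVHD host microglia Gpr34 alone held 69.8% of the summed level of the 9 genes, at 1435 ± 218 per kilobase (SD, n = 4), and in TCD host microglia 75.0%, at 1877 ± 268 (SD, n = 3). Its level per kilobase ranked 28th from the top among 13570 genes in GVHD host cells and 20th in TCD host cells. Adgre1, Gpr84, Gpr183, Adgrg1 and Gpr65 followed in that order in both host groups. In GVHD host libraries none of these neighbours overlapped, and in TCD host libraries Adgre1 overlapped with Gpr84, and Gpr183 with Adgrg1. Gpr132, Adgre5 and Gpr141 were under 1 per kilobase on average in both host groups.

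**Figure D2:**
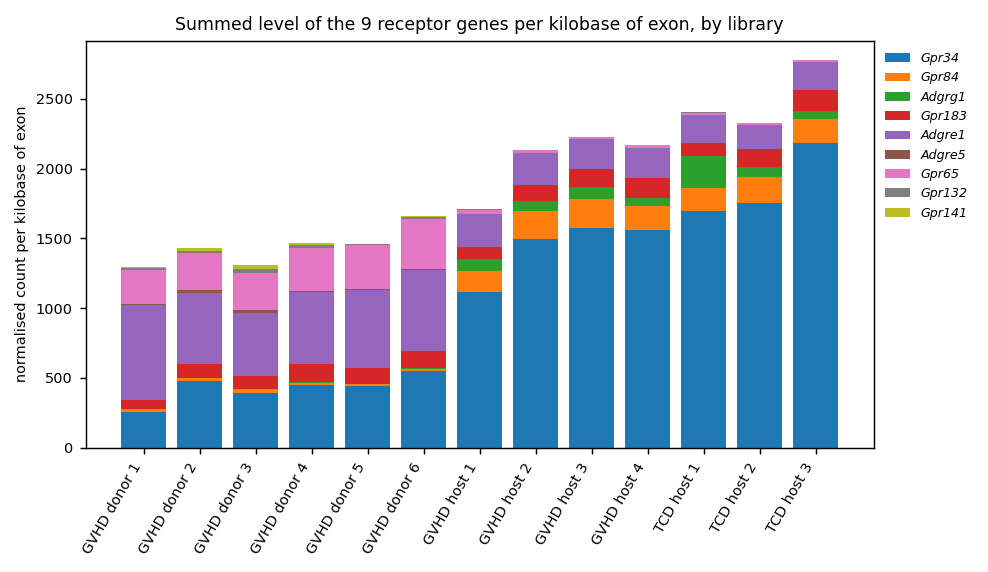
Level of the 9 receptor genes in normalised counts per kilobase of exon, stacked for each of the 13 sorted-cell libraries (GVHD donor 1 to 6, GVHD host 1 to 4, TCD host 1 to 3). Gpr34 (blue) makes up most of each host bar, and Adgre1 (purple) and Gpr65 (pink) take most of the rest of the donor bars beside it.

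Among the lipid receptors, Gpr34 (ENSMUSG00000040229, chromosome X, 13632089 to 13640858 on GRCm38, plus strand, inside the body of Cask on the other strand with 0 shared exon bases) had a lowest value of 537, a median of 934.2 and a highest value of 1143.5 in GVHD donor libraries. GVHD host libraries had 2325, 3121.5, 3293 and 3260.1, and TCD host libraries had 3543, 3659 and 4567. All donor libraries were below all host libraries, and all GVHD host libraries were below all TCD host libraries. The difference between the host groups did not pass (adjusted p = 0.497 by limma), and 6.55% of all tested genes did not overlap between them. The log2 fold change of GVHD donor over GVHD host was -1.81 ± 0.13 (SE, adjusted p = 2.15e-07) and that of GVHD donor over TCD host -2.25 ± 0.14 (adjusted p = 9.51e-08).

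Gpr84 (ENSMUSG00000063234, chromosome 15, 103308235 to 103310612, minus strand) had its lowest value at 25.1, its median at 27.7 and its highest at 46.1 in GVHD donor libraries. It stood at 268, 345, 359 and 296 in GVHD host libraries and at 287, 320.4 and 289 in TCD host libraries. Donor libraries were all far below host libraries, and the host groups overlapped. GVHD donor over GVHD host gave -3.38 ± 0.16 (SE, adjusted p = 1.26e-08) and GVHD donor over TCD host -3.31 ± 0.17 (adjusted p = 3.24e-08). An antisense gene, Gm49482, shares 681 exon bases with Gpr84 in the annotation and is not analysed here. The libraries are labelled stranded, the strand setting of the counting is not given in the sources used here, and without strand their reads could not be told apart.

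Gpr183 (ENSMUSG00000051212, chromosome 14, 121952551 to 121965195, minus strand, inside Ubac2 on the other strand) had a lowest value of 188, a median of 309 and a highest value of 367 in GVHD donor libraries. GVHD host libraries had 254, 333, 372 and 402, and TCD host libraries 267, 391 and 425. The groups overlapped throughout, and the library with the lower API number was the lowest of each group. The log2 fold change of GVHD donor over GVHD host was -0.24 ± 0.10 (SE, adjusted p = 0.0826, 95% interval -0.46 to -0.02). Against TCD host it was -0.37 ± 0.11 (adjusted p = 0.0207), a call that was lost without GVHD donor library 1 (adjusted p = 0.0661), without TCD host library 1 (0.0616) and without TCD host library 3 (0.0883), with API_197 libraries alone (0.0813) and without the API covariate (0.420).

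The oxysterols that Gpr183 follows are made by Ch25h and Cyp7b1 and removed by Hsd3b7. Ch25h averaged 24.6 in GVHD donor libraries, 9.20 in GVHD host libraries and 14.0 in TCD host libraries, which gave 1.37 ± 0.28 on the log2 scale (SE, adjusted p = 0.00179) over GVHD host and 0.84 ± 0.31 (adjusted p = 0.0485) over TCD host. The call over TCD host was lost when any of GVHD donor libraries 1, 2, 3, 4 and 6, GVHD host libraries 1 and 2 or TCD host libraries 1 and 3 was left out (adjusted p up to 0.262). It was also lost at equal library totals (0.0981), with quantile normalisation (0.0815), with GC correction (0.0552) and with API_197 libraries alone (0.314, log2 fold change 0.44). Hsd3b7 changed less, by 0.27 ± 0.09 (adjusted p = 0.0279) over GVHD host and 0.43 ± 0.10 (adjusted p = 0.00395) over TCD host. The call for Hsd3b7 over GVHD host was lost without GVHD donor library 1 or 3 or GVHD host library 1, 2 or 4 (adjusted p up to 0.0869), at equal library totals (0.392), with quantile normalisation (0.103), with GC correction (0.175), with API_197 libraries alone (0.107), without the API covariate (0.136) and with donor and host libraries paired by description number (0.108). Cyp7b1 was not analysed in sorted cells. Around Gpr34, the lysophosphatidylserine hydrolase gene Abhd12 fell in donor cells, averaging 293 in GVHD donor libraries against 605 in GVHD host libraries (-1.06 ± 0.18, adjusted p = 0.000516) and 764.5 in TCD host libraries (-1.36 ± 0.20, adjusted p = 0.000172). Abhd16a, which makes the lipid, and P2ry10, another of its receptors, did not pass, with 0.46 ± 0.21 (adjusted p = 0.110) and 1.31 ± 0.60 (adjusted p = 0.105) over GVHD host. Abhd16a passed without GVHD donor library 2 (adjusted p = 0.0453) and with the pairing by description number (0.0165).

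Gpr132 (ENSMUSG00000021298, chromosome 12, 112850873 to 112868228, minus strand) was low in host cells and clearly measured in donor cells. Its lowest, median and highest values were 22.6, 38.8 and 71.2 in GVHD donor libraries. GVHD host libraries had 2.887, 1.201, 1.338 and 1.475, or an estimated 13 to 74 reads, and TCD host libraries had 1.38, 0.604 and 0.845. Donor and host libraries did not overlap, while GVHD host and TCD host libraries did. GVHD donor over GVHD host gave 3.93 ± 0.26 (SE, adjusted p = 1.14e-07) and GVHD donor over TCD host 4.44 ± 0.28 (adjusted p = 1.16e-07).

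Gpr65 (ENSMUSG00000021886, chromosome 12, 98268635 to 98276644, plus strand), the proton sensor, was higher in donor cells, with a narrow spread among the donor libraries. GVHD donor libraries had a lowest value of 507, a median of 597 and a highest value of 739. In GVHD host libraries the values were 64.7, 35.6, 27.7 and 37.0, and TCD host libraries 33.2, 31.3 and 28.1. GVHD donor over GVHD host was 3.93 ± 0.18 (SE, adjusted p = 1.12e-08) and GVHD donor over TCD host 4.29 ± 0.20 (adjusted p = 1.66e-08). An antisense gene, Gm47566, shares 511 exon bases with Gpr65 and is not analysed here, with the same limit of strand as for Gpr84. GVHD host library 1 was the highest GVHD host library for Gpr65, Gpr132, Adgre5 and Gpr141, and it also had the highest macrophage marker sum (1049) and the lowest microglia marker sum (41256) of the GVHD host libraries. It is the only API_183 library of its group, so marker content and API number cannot be told apart there. TCD host library 1, also API_183, was the highest TCD host library for Gpr65, Gpr132 and Adgre5, but not for Gpr141. Both its macrophage marker sum (906) and its microglia marker sum (59583) were the highest of the TCD host libraries. T cell markers (6 genes) summed to 23.8 in GVHD host library 1, against 6.24 to 7.65 in the other GVHD host libraries. They summed to 13.5 in TCD host library 1, against 4.35 and 4.59 in the others. GVHD donor library 1 also had the highest T cell sum of its group, 32.5 against 3.00 to 9.80, but the lowest Gpr65 (507). The part of T cells in the receptor values was not tested. Gpr4, another proton-sensing receptor, averaged 0.932 in GVHD donor libraries against 1.48 in GVHD host libraries and did not pass (-0.42 ± 0.18, adjusted p = 0.0829), though it did without GVHD donor library 6 (0.0344), at equal library totals (0.0379) and with GC correction (0.0483).

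Gpr141 (ENSMUSG00000053101, chromosome 13, 19749682 to 19824257, minus strand) was the orphan receptor with the largest difference and the largest spread. GVHD donor libraries 1 to 6 had 34.3, 144, 174, 89.1, 6.99 and 27.8. GVHD host libraries had 0.975, 0, 0 and 0.227, and TCD host libraries 0.0865, 0 and 0.483, so that only GVHD host library 1, with an estimated 25 reads, held more than a few reads. The 2 GVHD host libraries at 0 could hold up to 0.190 and 0.191, the value of 3 reads. No donor library overlapped with a host library. The filter asked for a value of 1 or more in 3 or more libraries. All host values were under 1, so Gpr141 was kept only through its donor libraries. Its call and its lack of overlap therefore describe a gene that entered the test by its donor level. The log2 fold change of GVHD donor was 5.37 ± 0.72 (SE, adjusted p = 6.92e-05) over GVHD host and 5.46 ± 0.80 (adjusted p = 0.000149) over TCD host, and it depended on the pseudocount, running over all alternatives from 3.44 to 7.73 and from 3.46 to 7.91 in these comparisons.

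The adhesion receptors differed among themselves. Adgre1 (ENSMUSG00000004730, chromosome 17, 57358691 to 57483527, plus strand) was high in every sorted library. GVHD donor libraries had a lowest value of 1443, a median of 1745 and a highest value of 2197, against 761, 749, 697 and 711 in GVHD host libraries and 647, 545 and 653 in TCD host libraries. The 3 groups did not overlap with each other, though GVHD host against TCD host did not pass (adjusted p = 0.715 by limma). Between those host groups 6.55% of all tested genes did not overlap. GVHD donor over GVHD host was 1.29 ± 0.10 (SE, adjusted p = 5.66e-07), the smallest size among the 8 genes called, and GVHD donor over TCD host was 1.55 ± 0.11 (adjusted p = 2.92e-07).

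Adgre5 (ENSMUSG00000002885, chromosome 8, 83723251 to 83741326, minus strand) stood at 25.2, 68.8, 76.4, 47.0, 16.4 and 29.4 in GVHD donor libraries 1 to 6. GVHD host libraries had 2.47, 0.911, 0.693 and 1.48, and TCD host libraries 2.45, 1.27 and 1.81. All donor libraries exceeded all host libraries, by 4.10 ± 0.40 (SE, adjusted p = 3.98e-06) over GVHD host and 3.83 ± 0.44 (adjusted p = 1.89e-05) over TCD host. Ddx39 overlaps with Adgre5 on the other strand and shares 895 exon bases with it. It had 55.6 to 85.0 in GVHD donor libraries, 56.1 to 64.9 in GVHD host libraries and 63.0 to 71.8 in TCD host libraries, so its groups overlapped. The limit of strand given for Gpr84 holds for Adgre5 too, in sorted cells and in hippocampus, and reads shared with Ddx39 were not tested. Estimated reads of Adgre5 were not whole in several libraries, such as 63.4 in GVHD host library 1 and 14.4 in GVHD host library 2. Cd55, the partner of Adgre5, averaged 4.79 in GVHD donor libraries against 0.490 in GVHD host libraries (1.87 ± 0.35, adjusted p = 0.000851) and 0.778 in TCD host libraries (1.84 ± 0.38, adjusted p = 0.0021). It was the only one of the 3 tested ligands of these adhesion receptors to pass.

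Adgrg1 (ENSMUSG00000031785, chromosome 8, 94974751 to 95014217, plus strand) ran the other way. It had a lowest value of 7.37, a median of 20.2 and a highest value of 26.5 in GVHD donor libraries. GVHD host libraries had 451, 389.7, 449 and 323, and TCD host libraries had 1253, 387 and 327. Every donor library was far below every host library, and TCD host library 1 stood apart from the other host libraries. GVHD donor over GVHD host was -4.38 ± 0.32 (SE, adjusted p = 3.10e-07) and GVHD donor over TCD host -4.74 ± 0.35 (adjusted p = 4.06e-07). These were the largest falls among the 9 genes in both comparisons.

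The RefSeq promoter table (GRCm38.p6) held windows, from 250 bases before to 50 bases after the start site, for 6 of the 9 genes, and Gpr34, Adgre1 and Adgre5 are named only. A pair of windows is shown because they hold the same short word in genes with opposite patterns, higher in donor macrophages for Gpr132 and higher in host microglia for Gpr84. The windows of Gpr65 and Adgrg1 are shown as those of a gene higher in donor cells and of the gene with the largest fall. Capitals mark AGGAAGT, the core of sites for the myeloid factor PU.1, or ACTTCCT on the other strand, at -44 in Gpr132 (chr12:112860867-112861166, minus strand) and -63 in Gpr84 (chr15:103310389-103310688, minus strand). In Gpr65 (chr12:98268385-98268684, plus strand) they mark TTTATA, the TATA box letters on the other strand, at -175, and in Adgrg1 (chr8:94984149-94984448, plus strand) TGANTCA, the AP-1 word, at -141 and -59. The table holds another window for Adgrg1 (chr8:94976859-94977158, plus strand), not shown, in which none of the words searched was found.
Gpr132: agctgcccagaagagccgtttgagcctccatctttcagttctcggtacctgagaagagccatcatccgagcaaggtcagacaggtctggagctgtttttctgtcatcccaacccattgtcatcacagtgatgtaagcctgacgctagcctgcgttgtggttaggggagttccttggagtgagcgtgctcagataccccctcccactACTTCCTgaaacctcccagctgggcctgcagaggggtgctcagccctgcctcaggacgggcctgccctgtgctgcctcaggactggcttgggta
Gpr84: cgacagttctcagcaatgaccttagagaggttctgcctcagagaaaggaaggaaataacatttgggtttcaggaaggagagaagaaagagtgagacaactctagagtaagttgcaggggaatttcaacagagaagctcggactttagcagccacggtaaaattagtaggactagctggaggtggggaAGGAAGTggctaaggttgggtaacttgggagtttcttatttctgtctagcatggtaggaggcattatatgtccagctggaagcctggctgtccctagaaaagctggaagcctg
Gpr65: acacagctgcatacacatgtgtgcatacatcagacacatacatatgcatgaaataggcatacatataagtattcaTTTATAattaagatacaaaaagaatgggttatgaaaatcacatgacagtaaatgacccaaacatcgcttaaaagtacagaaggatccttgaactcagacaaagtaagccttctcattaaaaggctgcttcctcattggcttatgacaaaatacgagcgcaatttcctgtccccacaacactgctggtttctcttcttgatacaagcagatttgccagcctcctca
Adgrg1: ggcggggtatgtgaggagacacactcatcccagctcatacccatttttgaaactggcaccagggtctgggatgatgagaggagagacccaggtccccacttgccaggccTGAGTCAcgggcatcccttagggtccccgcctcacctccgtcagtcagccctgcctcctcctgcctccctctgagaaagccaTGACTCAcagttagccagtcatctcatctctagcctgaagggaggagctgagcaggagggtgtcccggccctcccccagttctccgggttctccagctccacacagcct

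Positions count from the start site, on both strands searched. Such words are common. Of all 32851 windows of the table, 9.35% held AGGAAGT, 7.81% TGANTCA and 13.6% TATAAA. The interferon-stimulated element and TGACGTCA, the cAMP word, are in 3.44% and 1.79% of windows and in none of the windows of these 6 genes. TTGCNNAA, the C/EBP word, is in 10.8% of windows and was found in that of Gpr183, and TATAAA in that of Gpr141. The windows of Gpr183, Gpr141, Gpr65 and Gpr84 had 35.3%, 37.3%, 38.3% and 47.0% G and C, and those of Gpr132 and Adgrg1 57.7% and 60.7%, against a median of 52.7% over all windows.

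Against TCD host microglia, GVHD donor macrophages gave 9 calls of 9, 5 higher and 4 lower, where 37% of the 13086 tested genes passed, 18.4% higher and 18.6% lower. Here too Gpr141 was in the test only through its donor libraries. For 8 of the 9, all but Gpr183, donor and host libraries did not overlap, against 29.5% of tested genes. This comparison shares the 6 donor libraries with the comparison above, so its directions are not a second observation of the donor cells. Rescaling all libraries to an equal total moved the median log2 fold change of all genes by -0.16 for GVHD donor over GVHD host and by -0.15 for GVHD donor over TCD host. The calls then split into 1830 higher and 3640 lower, against 2533 and 2519 as deposited, and into 1870 and 3401, against 2408 and 2437. Under that scaling Gpr183 was called lower in GVHD donor against GVHD host (-0.41, adjusted p = 0.00617), and no other of the 9 genes changed side of the threshold in either comparison.

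**Figure D3:**
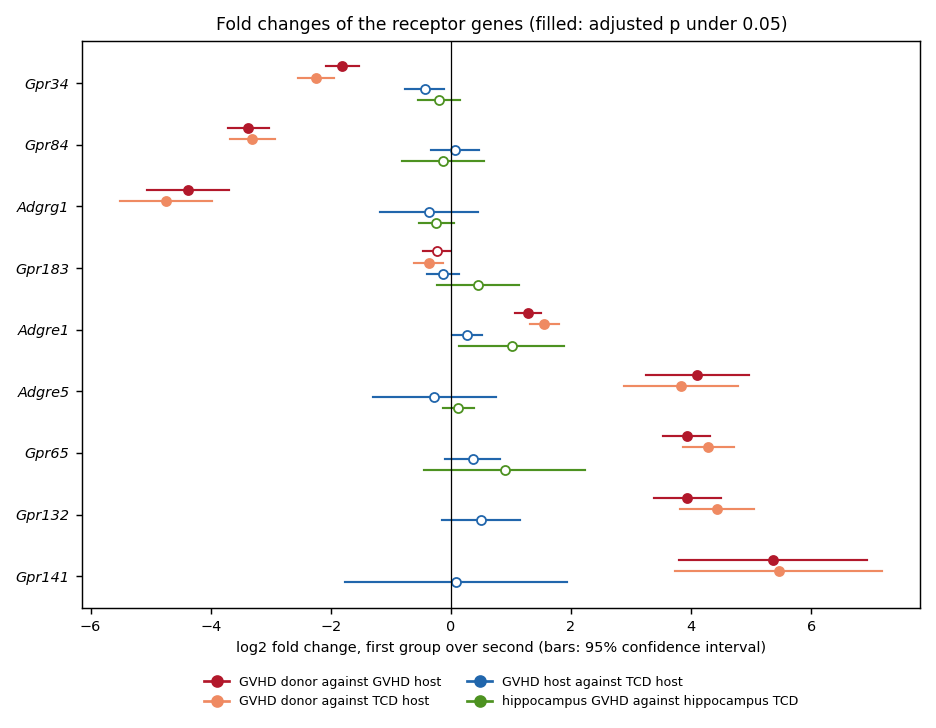
Log2 fold change of each receptor gene, first group over second, with its 95% confidence interval, for GVHD donor over GVHD host (dark red), GVHD donor over TCD host (orange), GVHD host over TCD host (blue) and GVHD over TCD hippocampus (green). Filled points passed at an adjusted p under 0.05. The donor comparisons reach from -4.74 for Adgrg1 to 5.46 for Gpr141, and the points of the other comparisons are all open.

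The spread among the GVHD donor libraries was not the same for all the genes. Gpr141 ran from 6.99 to 174 and Adgre5 from 16.4 to 76.4, while Gpr65 ran from 507 to 739. Libraries 2, 3 and 4 were highest for both Gpr141 and Adgre5, and library 5 was lowest. Ccr2, the chemokine receptor of inflammatory monocytes, had 194, 566, 918, 434, 48.8 and 208 in GVHD donor libraries 1 to 6, with the same libraries highest and lowest. Adgre4, an adhesion receptor of the same subfamily as Adgre1 and Adgre5, had 2.497, 52.1, 30.2, 27.8, 1.92 and 9.58. The dendritic cell marker sum also ran from 21.8 in library 5 to 183.2 in library 3. The macrophage and monocyte sum was lowest in library 5 (12173) but highest in library 1 (20653). In library 1, Gpr141 (34.3) and Adgre5 (25.2) were below libraries 2, 3 and 4. Ms4a7, another macrophage marker, moved less, between 684 and 1031. Whether the make-up of the sorted cells has a part in the spread of Gpr141 and Adgre5 was not tested.

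**Figure D4:**
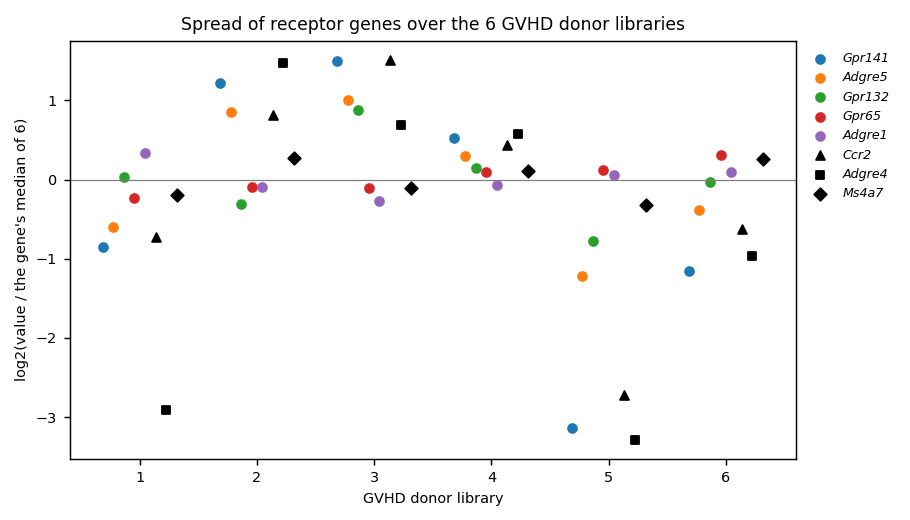
Values of 5 receptor genes (coloured circles) and of Ccr2, Adgre4 and Ms4a7 (black symbols) in the 6 GVHD donor libraries, as log2 of the value over the gene's median of 6. Gpr141, Adgre5, Ccr2 and Adgre4 lie above 0 in libraries 2, 3 and 4 and lowest in library 5, while Gpr65, Adgre1 and Ms4a7 stay near 0.

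The genes whose profiles over the 13 sorted libraries were most like each receptor were found by the root mean square distance between standardised log2 values, where 0 is an identical profile. Donor and host libraries set most of each profile, so the distances are a description. Gpr141 was nearest to Ccr2 (distance 0.105) and Ahnak (0.113), and Adgre5 to Mcub (0.121) and Emp3 (0.125). Gpr65 was nearest to Ptpn22 (0.0906), and Gpr132 to AB124611 (0.101) and Plscr1 (0.118). Gpr34 was nearest to Agmo (0.151), Adgrg1 to Tln2 (0.114), which was also highest in TCD host library 1, and Adgre1 to B3gnt8 (0.166). Gpr84 was nearest to Gm3488 (0.102) and Gm3252 (0.109), predicted genes whose reads may be shared with copies. Gpr183 had no near neighbour, with Sfmbt1 at 0.321. Among the 9 genes themselves, Gpr141 and Adgre5 were nearest to each other (0.153), then Gpr65 and Gpr132 (0.191), Gpr132 and Adgre5 (0.227), Gpr65 and Adgre1 (0.231), and Gpr84 and Adgrg1 (0.261).

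Related genes of the signalling system were read from lists of the same receptor class. Of 67 listed other orphan receptors, 23 had values in sorted cells and 20 passed the filter. A gene low in host cells could pass it through donor libraries alone, so the counts of rises and falls depend on the filter. Of the 20 tested, 10 rose and 5 fell in GVHD donor against GVHD host cells, against 19.4% and 19.2% of all tested genes. The median log2 fold change of the 20 was 0.55, against 0.04 over all genes. Gpr171 averaged 58.2 in GVHD donor libraries against 1.16 in GVHD host libraries (4.53 ± 0.49, SE, adjusted p = 1.02e-05). Gpr176 (2.54 ± 0.20) and Gprc5c (2.07 ± 0.27) rose as well, from means of 0.104 and 0.108 in GVHD host libraries. Gpr165 fell, averaging 3.83 in GVHD donor libraries against 29.7 in GVHD host libraries (-2.75 ± 0.30, adjusted p = 1.11e-05). Of 22 listed other adhesion receptors, 7 had values in sorted cells and 6 were tested, with the same limit of the filter. Of these 6, 2 rose and 3 fell, beside the same 19.4% and 19.2%. Adgre4 averaged 20.7 in GVHD donor libraries against 0.601 in GVHD host libraries (3.01 ± 0.72, adjusted p = 0.00489). Adgrl2 and Adgra3 were lower in donor cells (-2.96 ± 0.19 and -1.99 ± 0.27), and Adgrg6, listed at 0 in every GVHD host library, averaged 1.21 in GVHD donor libraries.

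Genes that act downstream of the receptors were counted in the same comparison, GVHD donor against GVHD host cells, where 19.4% of all tested genes were called higher and 19.2% lower. None of the 10 tested G alpha subunits rose and 3 fell, where 38.6% of all tested genes were called in either direction. The 3 were Gna15 (-0.90 ± 0.14, SE), a promiscuous partner of many receptors in blood cells, Gnas (-0.82 ± 0.16), which raises cAMP, and Gna13 (-0.33 ± 0.09). The Gna13 call was lost without GVHD host library 1 (adjusted p = 0.0556) and with API_197 libraries alone (0.0771). It was also lost with libraries paired by title number (0.0852) or by description number (0.0562). Of 7 receptor kinases and arrestins, 3 kinases rose, Grk6 (1.58 ± 0.13), Grk5 (1.32 ± 0.28) and Grk3 (0.98 ± 0.16), and none fell. Of 11 regulators of G protein signalling, which shorten G protein signals, 4 rose and 4 fell. Rgs18 averaged 18.4 in GVHD donor libraries against 0.215 in GVHD host libraries (3.77 ± 0.48), and Rgs1 averaged 1382 in GVHD donor against 639 in GVHD host libraries (0.93 ± 0.23), a call lost without the API covariate (adjusted p = 0.152). Rgs10, abundant in microglia, averaged 319 in GVHD donor against 559 in GVHD host libraries (-0.82 ± 0.11). The lists count what moved and were not tested as sets.

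Between GVHD host and TCD host microglia, which bears on what the disease does in the resident cells, none of the 9 genes passed limma. An unadjusted p under 0.05 was seen for 2 of the 9, and for 897 of the 13086 tested genes. Few genes of any kind passed, 0.107% of the 13086 tested, with 0.0917% higher and 0.0153% lower. Gpr34 averaged 2999.9 ± 456 in GVHD host libraries (SD, n = 4) and 3923 ± 561 in TCD host libraries (n = 3), and the log2 fold change was -0.44 ± 0.15 (SE, adjusted p = 0.497 by limma). Adgre1 averaged 729.5 ± 30.5 in GVHD host libraries and 615 ± 61.0 in TCD host libraries, or 0.27 ± 0.12 (adjusted p = 0.715 by limma). The 4 GVHD host libraries did not overlap with the 3 TCD host libraries for these 2 genes, as for 6.55% of all tested genes.

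The other 7 receptors overlapped between the host groups. Gpr84 had a log2 fold change of 0.07 (95% interval -0.34 to 0.47), Gpr183 of -0.13 (-0.39 to 0.13), Gpr65 of 0.36 (-0.10 to 0.82) and Gpr132 of 0.50 (-0.16 to 1.16). Intervals were wider for Adgre5 (-1.29 to 0.74) and for Gpr141 (-1.76 to 1.94), which was near 0 in both groups. Adgrg1 gave -0.37 (-1.18 to 0.45), and its direction rested on TCD host library 1: it was 0.05 without that library and 0.11 with API_197 libraries alone. With 4 and 3 libraries, the intervals of Gpr132, Adgre5, Gpr141 and Adgrg1 reached past 1 in size on the log2 scale. None of the related receptors, subunits, kinases or regulators passed in this comparison.

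In hippocampus, where microglia and macrophages are a small share of the cells, 7 of the receptors were measured, with Adgrg1 at percentile 75.1 of all genes per kilobase in GVHD and 78.3 in TCD libraries and the other 6 at percentiles 15.5 to 55.2 in GVHD and 12.7 to 58.5 in TCD libraries. In such bulk samples, fewer cells of a type and less RNA per cell cannot be told apart. Per kilobase of exon Adgrg1 was the highest, at 11.9 ± 0.617 in GVHD hippocampus and 14.2 ± 2.68 in TCD hippocampus (SD, n = 3 each), and Gpr34 was next, at 5.329 ± 1.150 in GVHD and 6.11 ± 0.507 in TCD hippocampus. Adgrg1 is also made by neural progenitors and other glia, so its place in this order cannot be read as microglia alone. Nor can that of Adgre5, which had 9.49 to 11.6 in hippocampus and 0.693 to 2.47 in sorted host libraries. Sorted cells and hippocampus were fitted apart, and the source of Adgre5 in hippocampus was not tested. None of the 7 genes passed limma, and 1 had an unadjusted p under 0.05, as had 2449 of the 14404 tested genes. Of the 14404 tested genes 0.479% passed, 0.319% higher and 0.16% lower, and 24% did not overlap between the groups, against 0 of these 7.

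Adgre1 had 12.96, 23.9 and 8.21 in GVHD hippocampus libraries 1, 2 and 3, against 9.89, 6.59 and 3.73 in TCD hippocampus libraries. The highest value was in GVHD library 2, and the groups overlapped. The log2 fold change was 1.01 ± 0.39 (SE, adjusted p = 0.231 by limma, 95% interval 0.13 to 1.89) and ran from 0.63 to 1.35 when single libraries were left out. Gpr65 had 2.21, 7.44 and 0.587 in GVHD hippocampus against 2.27, 0.831 and 0.122 in TCD hippocampus, or 0.89 ± 0.59 (adjusted p = 0.481 by limma). GVHD library 2 was the highest of the 6 libraries for Adgre1, Gpr65, Gpr183 and Adgre5 and the lowest for Gpr34, Gpr84 and Adgrg1. It also had the highest Lyz2, at 202 against 8.99 to 94.0 in the other 5 libraries, the highest Ms4a7, at 7.61 against 0.306 to 1.94, and the lowest P2ry12, at 10.7 against 33.2 to 48.7. The macrophage and monocyte marker sum was 111, 237 and 51.3 in GVHD hippocampus libraries against 52.9, 34.9 and 15.8 in TCD hippocampus libraries, and the microglia marker sum 216 to 292 against 259 to 314. The part of these markers in the receptor values was not tested.

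The remaining receptors in hippocampus overlapped between the groups. Adgrg1 had 67.8, 61.2 and 63.8 in GVHD hippocampus against 65.5, 93.3 and 72.0 in TCD hippocampus (-0.24, 95% interval -0.53 to 0.04). Gpr34 had 10.3, 9.25 and 13.8 in GVHD hippocampus against 13.6, 13.2 and 11.6 in TCD hippocampus (-0.20, interval -0.55 to 0.15). Adgre5 was the most even, at 9.80 to 11.6 in GVHD hippocampus and 9.49 to 10.1 in TCD hippocampus (0.12, interval -0.13 to 0.38). Gpr183 and Gpr84 were near 2 or below in both groups, with log2 fold changes of 0.45 (interval -0.23 to 1.13) and -0.13 (interval -0.82 to 0.55). Choroid plexus markers were higher in GVHD hippocampus for 5 of 5 genes, summing to 978 to 3462 against 11.2 to 67.8 in TCD hippocampus, and their part in the receptor values was not tested. No other orphan (46 tested) or adhesion receptor (18 tested) passed in hippocampus.

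**Figure D5:**
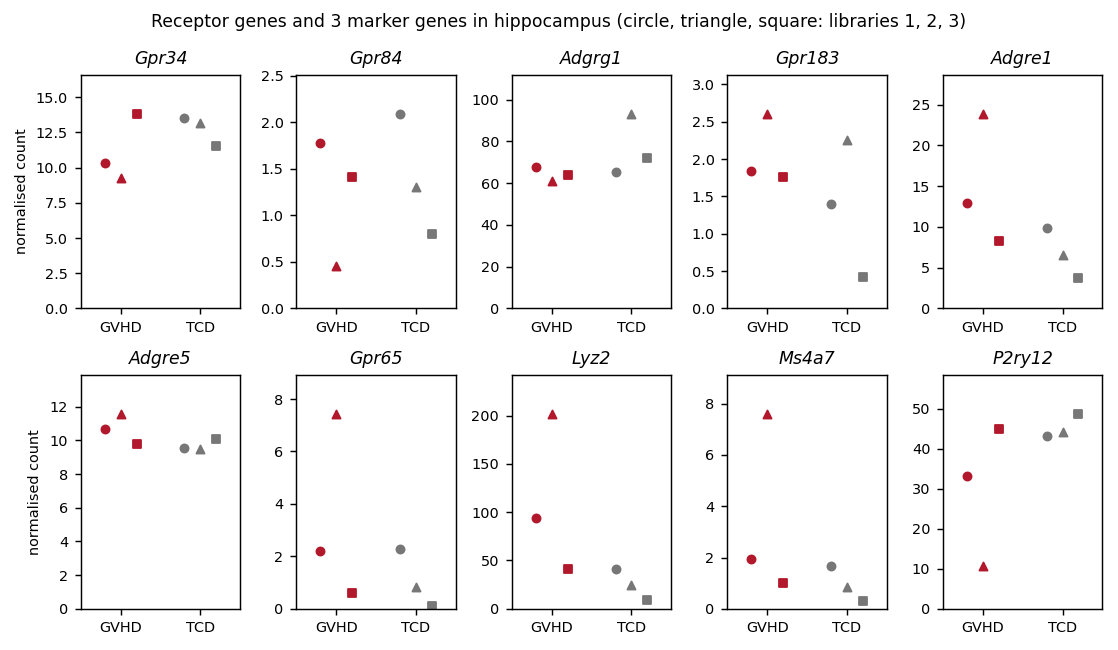
Normalised counts of 7 receptor genes and of the marker genes Lyz2, Ms4a7 and P2ry12 in GVHD hippocampus (red, left) and TCD hippocampus (grey, right), with libraries 1, 2 and 3 as circle, triangle and square and each axis starting at 0. GVHD library 2 is the highest of the 6 points for Adgre1, Adgre5, Gpr65, Gpr183, Lyz2 and Ms4a7 and the lowest for Adgrg1, Gpr34, Gpr84 and P2ry12.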

How the data were processed

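Per the labels, RNA was isolated with one of 2 kits, and libraries are described as stranded. Which kit and which strand setting belong to a library is not given in the sources used here. The values are a signal: normalised counts as deposited by the authors. The submitters' processing notes name cutadapt (version 1.9), STAR (2.5.2a), RSEM (1.2.30) and the build GRCm38, but the scaling is not given in the sources used here. Below 100 reads, 68.0% to 73.7% of values in sorted libraries and 80.0% to 81.9% in hippocampus were whole multiples of 1 read (tolerance 0.02 of a read), so count tests were not run.

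Positions, symbols and exon lengths came from GENCODE for GRCm38, with 213 sorted and 192 hippocampus identifiers unmatched. The filter asked for a value of 1 or more in 3 or more libraries. The fit was limma (version 3.58.1, R 4.3.3) on log2(value + 1), trend on, two-sided, with p-values adjusted by Benjamini-Hochberg across the whole filtered table and called under 0.05. Sorted cells shared 1 model with the API number as covariate, and hippocampus was fitted alone. The filter kept 9 of 9 receptor genes in sorted cells, Gpr141 through donor libraries alone, and 7 in hippocampus. The scripts were tested on simulated data.

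The 9 genes and the related lists were chosen with earlier results of these data known. Genes named from lists were the up to 4 called genes of largest change per list and comparison, and all tested genes of the 3 lists for proton, lysophosphatidylserine and oxysterol receptors; markers and overlapping genes are named besides. A listed gene is not reported here. Whether libraries pair was read from correlations of their deviations from group means. Equal numbers in the descriptions gave 0.166 to 0.394 for the 4 donor and host pairs of GVHD mice, and equal numbers in the titles 0.308 to 0.585 for the 3 pairs of GVHD donor and TCD host, so blocked values are given beside results they change. The API number was not taken out of the deviations, and both libraries of each pair share it. GVHD donor and TCD host cells also come from different mice, so these correlations cannot show that libraries pair. No other set of numbers had every correlation over 0.1.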

Additional observations from a re-analysis of the deposited data

Results flagged for a closer look

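Single libraries that stood apart from their group were looked for in the 18 combinations of a receptor gene with GVHD donor or GVHD host libraries, where chance alone marks about 5% of groups. Gpr84 stood at 46.1 in GVHD donor library 3, with the other 5 donor libraries at 25.1 to 30.04. That library also had the highest dendritic cell marker sum of the donor libraries, 183.2. Gpr132 stood at 2.887 in GVHD host library 1, with the other 3 GVHD host libraries at 1.201 to 1.475. GVHD host library 1 had the highest macrophage and monocyte marker sum of its group, 1049 against 524 to 693. Its T cell marker sum was the highest of the group too, 23.8 against 6.24 to 7.65. That library is also the only API_183 library of that group. The part of these markers and of the API number was not tested. Both genes kept their calls in GVHD donor against host cells with any single library left out.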

How the results depend on the processing

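Of the receptor genes called in the donor comparisons, all but Gpr183 kept their direction and their call in each of the 28 alternatives for GVHD donor against GVHD host and the 27 for GVHD donor against TCD host. The alternatives covered pseudocount, filter, scaling, variance trend, GC correction, API number, samples in the fit, replicate block and left-out libraries. Gpr183 in GVHD donor against GVHD host was called in 4 of 28: at equal library totals (-0.41), with the replicate block by title number (-0.29), with that block and GC correction (-0.34), and without GVHD donor library 4 (-0.28). No receptor gene was called in GVHD host against TCD host or in hippocampus under any alternative in which it was tested. Some did not pass the filter in every alternative. Gpr141 was tested in 26 of 27 for GVHD host against TCD host. In hippocampus Gpr65 was tested in 13 of 17, and Gpr183 and Gpr84 in 16 of 17.

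Between GVHD host and TCD host, 14 genes of all kinds were called. This became 2 with the replicate block, 2 with GC correction and the block, 1 with API_197 libraries alone, 0 with only the 2 groups compared in the fit, and 6 to 28 with single libraries left out (6 without GVHD host library 1, 2 or 4, 28 without GVHD host library 3, 7 without TCD host library 2). With only the 2 groups, limma gave 978 genes at an unadjusted p under 0.05. In hippocampus 69 genes became 38 with quantile normalisation, 43 with GC correction, 16 with the replicate block, 11 with GC correction and the block, 0 without the variance trend (2343 at an unadjusted p under 0.05), and 0 to 123 with single libraries left out (2 without GVHD library 1, 0 without GVHD library 3 or TCD library 2, with 1828 and 1967 at an unadjusted p under 0.05, and 123 without TCD library 3). The cause of these shifts was not tested. Calls there split into 59 higher and 14 lower at equal library totals and 30 and 8 with quantile normalisation, against 46 and 23.

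Title numbers gave some correlations under 0.1 (-0.183 to 0.394) for GVHD donor with GVHD host, GVHD host with TCD host and GVHD with TCD hippocampus. A block by title number gave 9 receptor genes and 4587 genes called in GVHD donor against GVHD host, against 8 and 5052. The pairing by description number gave 8 and 4694, and that by title number 9 and 4482 in GVHD donor against TCD host, against 9 and 4845. Beside Gpr183, blocking changed no call among the 9 genes. Of related genes, the title block gave calls for Gpr4 (adjusted p = 0.0446) and P2ry10 (0.0176) in GVHD donor against GVHD host and for P2ry10 in GVHD donor against TCD host (0.0196). It ended the call of Gna13 in GVHD donor against GVHD host (0.0852) and that of Adgrg5 in GVHD donor against TCD host (0.133). The Adgrg5 call (1.75 ± 0.63, SE, adjusted p = 0.0466 by limma) was lost under many other alternatives too. Among them were API_197 libraries alone (0.208) and the fit without TCD host library 1 (0.175).

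Fold changes that turned direction were small and not called. In GVHD host against TCD host, Adgrg1 was 0.11 with API_197 libraries alone and -0.61 to 0.046 with single libraries left out. Gpr141 was -0.19 with API_197 libraries alone and -0.28 to 0.28 with libraries left out. Abhd16a was 0.077 with API_197 libraries and -0.36 to 0.0088 with libraries left out. Gpr4 was 0.026 with GC correction, 0.036 with that and the block, 0.023 without the API covariate, and -0.14 to 0.086 with libraries left out. In hippocampus Abhd16a was 0.0030 with GC correction, with or without the block, and with single libraries left out Abhd12 ran from -0.15 to 0.0022 and Gpr84 from -0.32 to 0.15. The cause was not tested. Tests on recovered counts could not be run, since whole reads could not be had. Few libraries per group, and fewer than 100 reads per host library for Gpr132, Adgre5 and Gpr141, limit these values.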

Other observations

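Some receptor genes outside the 9 did not overlap between GVHD host and TCD host microglia, and they are named here after their values were seen. The share of all receptors looked at that did not overlap is not given, so these genes are a description only. Gpr165, an orphan receptor, had 17.1, 27.3, 43.5 and 31.1 in GVHD host libraries against 97.3, 75.0 and 56.4 in TCD host libraries. The difference by limma was -1.41 ± 0.35 on the log2 scale (SE), with an adjusted p of 0.1832. GVHD donor libraries had 1.40 to 6.39 of it. Gpr18, a lipid receptor of lymphocytes and myeloid cells, ran the other way, with 9.48, 5.50, 3.57 and 4.54 in GVHD host libraries against 1.38, 2.29 and 1.69 in TCD host libraries (1.26 ± 0.38, adjusted p = 0.338 by limma). GVHD donor libraries had 9.85 to 38.7 of it. Neither passed over all genes, and 6.55% of tested genes did not overlap between these groups.

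Adgrg5, an adhesion receptor of blood cells, had 54.6, 26.3, 20.1 and 27.5 in GVHD host libraries against 1.21, 17.7 and 17.3 in TCD host libraries, with an adjusted p of 0.631 by limma. The low value is that of TCD host library 1, the library whose description reads Syn and in which Adgrg1 was highest. In hippocampus Gpr17, a receptor of maturing oligodendrocyte precursors, averaged 36.2 in GVHD against 48.6 in TCD libraries, without overlap (-0.41 ± 0.09, SE, adjusted p = 0.0731 by limma), where 24% of tested genes did not overlap.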
